A study of Rattus norvegicus with 3 samples.

Results

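The genes of the proteasome, the protease that degrades ubiquitin-tagged proteins, were examined on 3 arrays of rat cerebellar cortex. Members were chosen by name: every probe that is not a control and whose transcript accession maps to a rat RefSeq symbol of the Psma to Psmg families, apart from the immunoproteasome subunits Psmb8, Psmb9 and Psmb10, which are given separately. Of 45 RefSeq symbols that fit the rule, 40 were matched by a probe, out of 16654 named genes on the array. The 5 without a matched probe were Psmb3, Psmb11, Psmd11, Psmg1 and Psmg3, and they are not analysed here. The rule uses gene names and no measured value.

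The study examined gene expression in the cerebellum in crossed cerebellar diaschisis. This is a state of reduced blood flow and metabolism in the cerebellar hemisphere opposite a cerebral lesion, here a stroke. Male Wistar rats, 9 weeks old, underwent transient occlusion of the right middle cerebral artery (MCAO) or sham surgery, and tissue was taken 2 days later. Total RNA from the left cerebellar cortex of the MCAO rats (contralateral to the infarct), from their right cerebellar cortex (ipsilateral) and from the left cerebellar cortex of the sham-operated rats (control) was hybridized to 1 array each, in 1 colour. Each array carried tissue combined from 4 rats, and the methods give 4 MCAO rats for the arrays, so both sides came from the same animals. Variation between rats therefore cannot be seen, both sides share their control, and the control holds left cortex only.

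The proteasome consists of a barrel-shaped core particle, whose outer alpha rings gate the entrance and whose inner beta rings carry the proteolytic sites, and of caps that bind it. The regulatory particle has a base, with a ring of ATPases that unfold substrates, and a lid, which removes ubiquitin chains; alternative caps, the activators, open the gate without ATP. Neurons rely on the complex for the turnover of synaptic and misfolded proteins, and interferons induce the immunoproteasome and a pair of activator subunits.

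Signals are given as scaled log2 signal, the log2 of the background-subtracted spot signal after the arrays were brought to a common 75th percentile. Differences between arrays are log2 ratios, so that 1 is a doubling. The share of spots well above background was 72.3% on the contralateral, 73.3% on the ipsilateral and 73.7% on the control array, and no spot was saturated. The error that the scanner software gives for a log2 ratio had a median of 0.20 over the members. This is the software's estimate of technical error within an array. It was nearly constant for bright subunits, at 0.204 both for Psmb4 with 10 spots and for Psmb5 with 1 spot. It thus serves as a near-fixed threshold and not as a measured spread. With 1 array per condition no test between conditions was possible. In tissue RNA, fewer cells of a type and less RNA per cell cannot be told apart.

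Defining markers of the cerebellar cortex were present. All 6 granule cell markers and all 5 Purkinje cell markers were well above background on all 3 arrays, and their median log2 ratios to control were 0.02 and 0.13 on the contralateral side and -0.01 and 0.09 on the ipsilateral side. Markers of the tissue bordering the cortex differed more between the arrays. The 5 choroid plexus genes summed to a scaled signal of 10088 contralaterally, 75737 ipsilaterally and 33263 in the control, nearly all of it from Ttr, the carrier of thyroid hormone in cerebrospinal fluid. The 4 leptomeningeal genes, with the collagen gene Col1a2 as the brightest, summed to 5481, 7714 and 10054 in the same order. They did not move alike against the control. Col1a1 had log2 ratios of -1.26 contralaterally and -0.61 ipsilaterally, Col1a2 had -0.85 and -0.37, and Lum had -0.95 and -0.63. Dcn had -0.03 and 0.23. Of the choroid plexus genes, Kl was not well above background contralaterally.

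Within other marker lists, too, the genes went different ways. Those of Bergmann glia and astrocytes summed to 42499, 44209 and 53846, with the water channel Aqp4 as the brightest. Aqp4 and Gfap had log2 ratios to control of -0.55 and -0.73 contralaterally and -0.45 and -0.66 ipsilaterally, while Gdf10, a marker of Bergmann glia, had 0.39 and 0.27. Those of forebrain neurons summed to 6407, 6298 and 5270, with Ppp1r1b as the brightest. Nrgn, a forebrain gene, was higher on the contralateral array, by 1.83 over the control and by 2.04 over the ipsilateral array, whereas Neurod6 had -0.05 and 0.06 against the control. The part of these tissue differences in the subunits' values was not tested.

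Among the 40 subunits, hardly any difference between the arrays was seen. All 40 were detected, meaning that a probe was well above background on at least 1 array, and 38 were measured throughout, with no probe dim on any array. None of the 40 passed a log2 ratio of 1, the threshold of the study's methods, in any comparison. Of the 13354 named genes detected, 5.47% passed it contralateral to control, 7.1% ipsilateral to control and 6.79% contralateral to ipsilateral. At a smaller log2 ratio of 0.5, 0 of 40 subunits passed contralateral to control, against 14.4% of detected genes, and 0 of 40 contralateral to ipsilateral, against 14%. Ipsilateral to control, 1 of 40 passed, against 17.1%; it was Psmg4, described with the assembly factors, through a probe that was not well above background.

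The median log2 ratio of the 40 subunits was 0.03 contralateral to control, 0.06 ipsilateral to control and -0.01 contralateral to ipsilateral. Over all detected genes the medians were -0.00010, 0.03 and -0.01. The members' medians therefore differed from those of all genes by 0.03, 0.03 and -0.0017. Log2 ratios to control were above 0 for 24 subunits contralaterally, 60.0%, and for 27 ipsilaterally, 67.5%, against 49.99% and 54.9% of all detected genes. The sign of a single ratio depends on the scaling: left unscaled, every ratio moved by -0.15 contralateral to control, -0.53 ipsilateral to control and 0.38 between the sides, and under spike-in scaling by -0.08, -0.25 and 0.17, so ratios nearer 0 than this can change sign. Directions below are those of the reported scaling unless another is named.

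The comparison is stricter among the 38 subunits measured throughout, since dim probes scatter more. At a log2 ratio of 1, 0 of 38 subunits passed in each comparison, against 1.46% of 11250 genes measured in the same way contralateral to control, 2.11% ipsilateral to control and 1.18% contralateral to ipsilateral. At 0.5, 0 of 38 passed, against 7.49%, 9.26% and 5.51%. At such shares few of any 38 genes pass either threshold, so these counts of 0 do not by themselves set the subunits apart. The subunits' log2 ratios lay between -0.16 and 0.23 contralateral to control, between -0.22 and 0.22 ipsilateral to control and between -0.13 and 0.17 contralateral to ipsilateral. The largest of these corresponds to a 1.17-fold difference. The scanner error of a subunit's own ratio was not exceeded by 37 of 38 subunits in the contralateral comparison, by 36 in the ipsilateral one and by all 38 between the sides. Most genes stayed within this error as well, 72.6%, 69.7% and 82.8% of the 11250. Since the error was close to 0.20 for each measured subunit, the subunit counts amount to a near-fixed threshold.

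**Figure D1:**
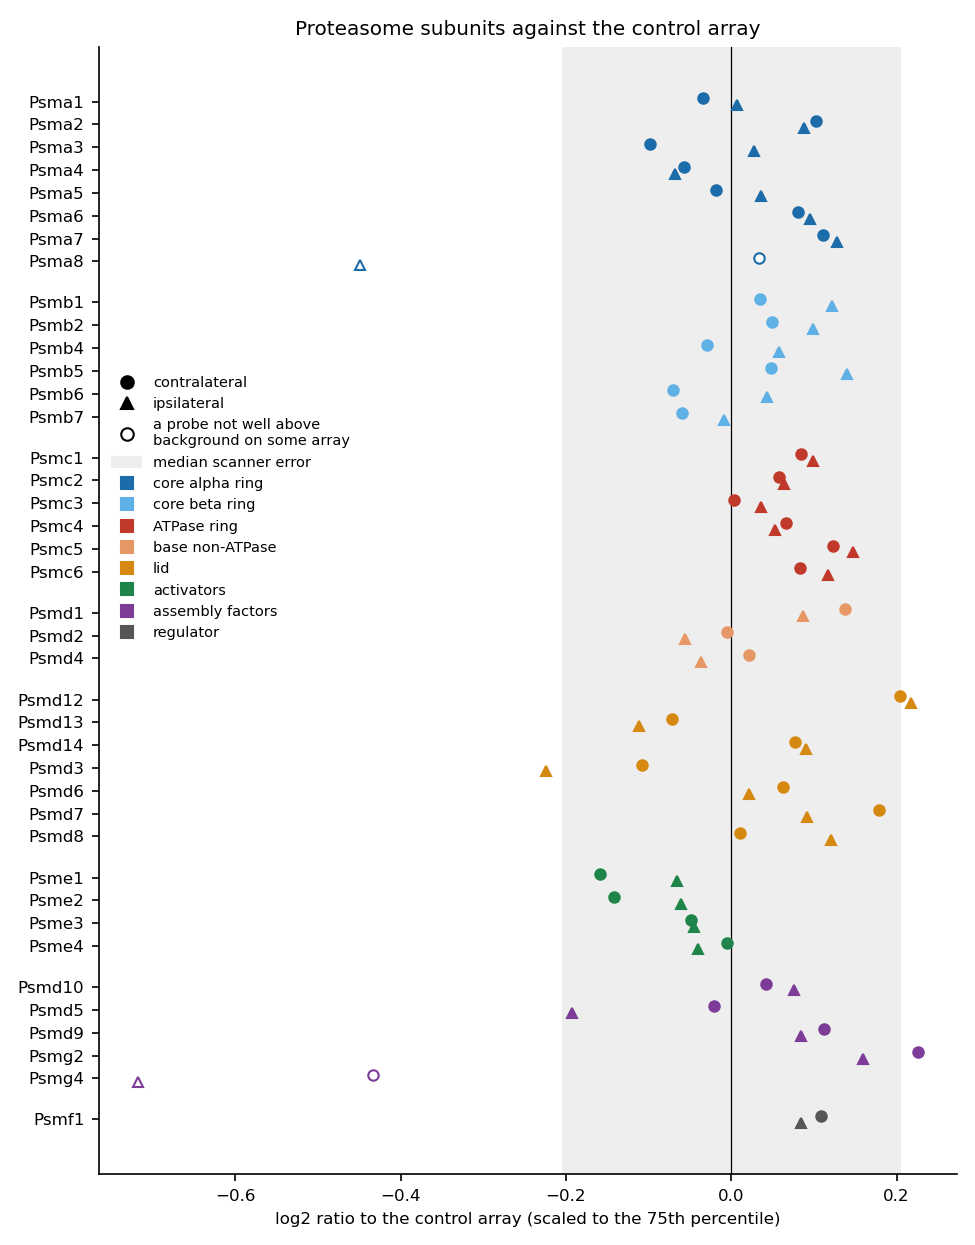
Log2 ratio to the control array (horizontal) of each of the 40 proteasome subunits, grouped and coloured by class, for the contralateral (circles) and the ipsilateral array (triangles). The grey band is the median scanner error of 0.20, and open symbols are Psma8 and Psmg4, which had a probe not well above background on some array; all filled symbols lie between -0.22 and 0.23.

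Subunit signals were high, and bright genes vary less on an array. When the 11250 measured genes were divided into 4 bands of equal size by mean signal, 25 of the 38 subunits fell in the brightest band, 12 in the next, 1 in the band below and 0 in the dimmest. In the brightest band the standard deviation of the log2 ratios across genes was 0.09 for subunits and 0.18 for all genes contralateral to control, 0.08 and 0.18 ipsilateral to control, and 0.06 and 0.10 between the sides. Across all bands it was 0.09 for subunits and 0.31 for all genes in the contralateral comparison. Part of the narrow scatter of the subunits was therefore shared by other genes of like signal. These bands were chosen after the values were seen. The median of all genes in the brightest band was 0.04 in each comparison with the control, near the subunits' own 0.03 contralaterally and 0.06 ipsilaterally in that band.

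**Figure D2:**
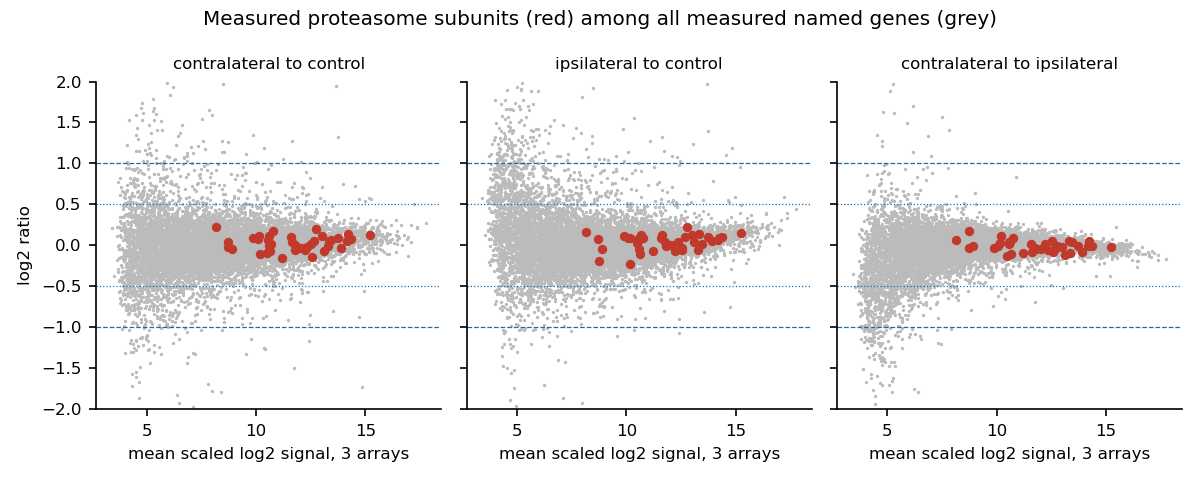
Log2 ratio (vertical, limited to 2 in either direction) against mean scaled log2 signal of the 3 arrays for the 11250 genes measured on all arrays, with the 38 proteasome subunits in red. Dashed and dotted lines mark log2 ratios of 1 and 0.5; every subunit lies inside the dotted lines, 25 of the 38 in the brightest band of genes.

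The alpha ring of the core was represented by 8 genes. Psma7, a constitutive alpha subunit, had a scaled log2 signal of 13.04 contralaterally, 13.05 ipsilaterally and 12.92 in the control. Psma3, another alpha subunit, had 10.40, 10.53 and 10.50. Psma7 had the highest and Psma3 the lowest contralateral ratio of the class, 0.11 and -0.10, and on the ipsilateral side both were above the control, by 0.13 and 0.03. The ratios of Psma1, Psma2, Psma4, Psma5 and Psma6 lay within the same range contralaterally, from -0.06 to 0.10, and from -0.07 to 0.10 ipsilaterally. Psma8, the alpha subunit of the testis form of the core, was near the limit of measurement, with a signal of 3.77 contralaterally and 3.74 in the control, and it was not well above background ipsilaterally. Set against the lowest signal counted as well above background on the ipsilateral array, the control was at least 1.08-fold and the contralateral array at least 1.10-fold brighter, bounds too small to carry a difference.

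The beta ring was represented by 6 genes, of which Psmb5, Psmb6 and Psmb7 carry the active sites. Psmb2, a structural subunit, had the highest contralateral ratio, 0.05, with signals of 12.67 contralaterally, 12.72 ipsilaterally and 12.62 in the control. Psmb6, the subunit with caspase-like activity, had the lowest, -0.07, with signals of 13.05, 13.16 and 13.12. For Psmb5, the subunit with chymotrypsin-like activity, the signals were 13.32, 13.41 and 13.27. All 6 beta subunits were lower contralaterally than ipsilaterally, by log2 ratios between -0.11 and -0.05, but all 6 were higher when arrays were left unscaled or scaled by spike-in probes. The class median was -0.09 between the sides. Each of these ratios was smaller than its scanner error. Of the 13 processing settings, 4 only add a constant to each array and cannot change a difference from the median of all genes. Over the other 9 settings, the reported one included, the class median between the sides lay below that median, between -0.09 and -0.0042.

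The ATPase ring was complete, with all 6 of its genes matched. All 6 ratios were above 0 on both sides, between 0.0030 and 0.12 contralaterally and between 0.04 and 0.15 ipsilaterally, but not under every setting. Contralaterally 0 of 6 were above 0 when unscaled, 2 under spike-in scaling, 4 with quantile normalization, 5 with normexp and 5 with the deposited values; ipsilaterally the counts were 0, 0, 5, 4 and 4. Psmc5 was at the top, with scaled log2 signals of 15.27 contralaterally, 15.29 ipsilaterally and 15.15 in the control. Psmc3 was at the bottom, with 11.75, 11.78 and 11.75, which is level with the control on the contralateral side. The class median was 0.08 on both sides. Under settings that shift whole arrays the ATPases moved with all genes, so the class was also set against the all-gene median, above which it lay in 9 of the 9 settings that can change this difference contralaterally, by 0.02 to 0.08, and in 8 of 9 ipsilaterally, where adding 50 to the signal put it below, by -0.05. The all-gene median is not matched for signal, and all genes of the brightest band had a median of 0.04 in each comparison with the control. Psmc1 had 2 probes, with ipsilateral ratios of 0.21 and -0.01, a gap wider than the class itself.

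Of the non-ATPase subunits of the base, Psmd1 and Psmd2 are the large scaffold proteins and Psmd4 is a ubiquitin receptor. Psmd1 had signals of 14.28 contralaterally, 14.23 ipsilaterally and 14.15 in the control, and Psmd2 had 13.31, 13.26 and 13.32. The 3 genes had nearly equal ratios between the sides, 0.05, 0.05 and 0.06, with the contralateral array higher. Against control they were spread over both directions, between -0.0051 and 0.14 contralaterally and between -0.06 and 0.09 ipsilaterally. Ipsilaterally, the class median lay below the all-gene median in 9 of these 9 settings, by -0.17 to -0.05.

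The 7 lid genes held the widest range of ratios to control among the classes, Psma8 and Psmg4 set aside. Psmd12, a scaffold subunit of the lid, had signals of 12.82 contralaterally, 12.83 ipsilaterally and 12.62 in the control, and both ratios, 0.20 and 0.22, were the highest of the class, the ipsilateral one past its scanner error. Psmd3, also a scaffold subunit, had 10.19, 10.07 and 10.30, and both ratios, -0.11 and -0.22, were the lowest of the class, again with the ipsilateral one past its scanner error. Psmd12 was above and Psmd3 below the control on both MCAO arrays, which were compared with the same control array.

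Psmd7, the partner of the deubiquitinating subunit, had 10.85 contralaterally, 10.77 ipsilaterally and 10.68 in the control. Psmd8 had 10.63, 10.74 and 10.62, and Psmd13 had 10.61, 10.57 and 10.68. Psmd8 was 0.01 above the control contralaterally and 0.12 above it ipsilaterally, whereas Psmd13 was lower than the control on both sides, with ratios of -0.07 and -0.11. Psmd14, the deubiquitinating enzyme itself, had ratios of 0.08 and 0.09, and Psmd6 had 0.06 and 0.02. The lid as a whole had medians of 0.06 contralaterally and 0.09 ipsilaterally, with 5 of 7 genes above 0 on each side, so subunits of a single subcomplex did not share a direction.

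Unlike the lid, the activators had class medians below the control on both sides. Psme1 and Psme2, which together form the interferon-inducible cap, gave the lowest contralateral ratios of all 38 measured subunits. Psme1 had scaled log2 signals of 11.12 contralaterally, 11.21 ipsilaterally and 11.28 in the control, and Psme2 had 12.49, 12.57 and 12.63. Both followed the same order, with the control highest and the contralateral array lowest. Psme3, the nuclear homolog of this pair, had ratios of -0.05 and -0.04, and Psme4, a large nuclear activator, had 10.59, 10.56 and 10.60, with ratios of -0.0048 and -0.04. All 4 activators were thus below the control on both sides, with class medians of -0.10 and -0.05, but Psme4 was level with the control contralaterally, and it lay above it by 0.03 when arrays were scaled to the median and by 0.02 with quantile normalization. Against the all-gene median the class median lay below 0 in 9 of the 9 settings that can change it, between -0.13 and -0.09 contralaterally and between -0.17 and -0.05 ipsilaterally. All 4 ratios were inside the scanner error on each side.

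For 4 subunits the array carries a probe on 10 spots, which shows how closely a signal repeats within an array. Over the 8 member probes with replicate spots, the median standard deviation between spots was 0.05 contralaterally, 0.04 ipsilaterally and 0.05 in the control, smaller than the scanner error. Psme1 had a mean and standard deviation of 11.12 ± 0.03 over 10 contralateral spots and 11.28 ± 0.03 over 10 control spots. The ranges did not overlap, with the brightest contralateral spot at 11.18 and the dimmest control spot at 11.24. Psme2 had 12.49 ± 0.05 and 12.63 ± 0.06, with ranges that overlapped, and so did both genes' ipsilateral and control spots. Psma7, with 8 spots left after 2 were dropped as outliers, had 13.04 ± 0.03 contralaterally, 13.05 ± 0.03 ipsilaterally and 12.92 ± 0.03 in the control. Its spots on either MCAO array lay above all control spots under the reported scaling. The means differed from the control by 0.11 and 0.13. Leaving the arrays unscaled moves every ratio further than this, by -0.15 contralateral to control and -0.53 ipsilateral to control. The spots of Psmb4, a structural beta subunit, overlapped in every comparison, with means of 13.87, 13.96 and 13.90. Spots of an array share the same pooled RNA and the same hybridization, so they measure neither the rats nor a second array.

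**Figure D3:**
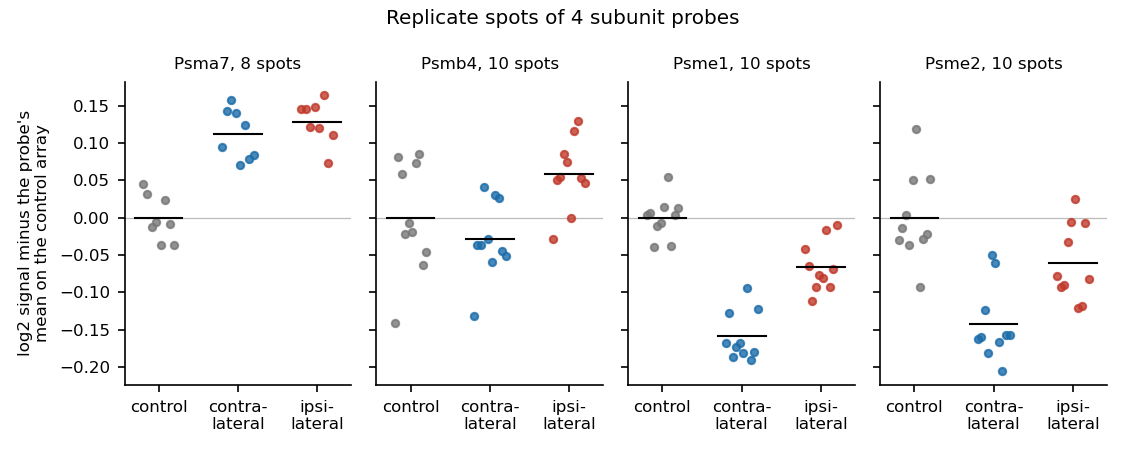
Log2 signal of each replicate spot minus the probe's mean on the control array (vertical) for Psma7, Psmb4, Psme1 and Psme2 on the 3 arrays; points are spots, offset sideways only for display, and bars are means. Under the reported scaling, contralateral spots of Psme1 all lie below its control spots, and Psma7 spots of both MCAO arrays all lie above. Psmb4 overlaps throughout.

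The immunoproteasome subunits, which replace the active beta subunits in cells exposed to interferon, were also low contralaterally. Psmb9, the replacement of Psmb6, had 7.71 contralaterally, 7.97 ipsilaterally and 8.20 in the control. Psmb8, the replacement of Psmb5, had 7.55, 7.85 and 7.67, and Psmb10, the replacement of Psmb7, had 12.08, 12.11 and 12.23. The contralateral ratios to control were -0.49, -0.12 and -0.15, and ipsilaterally they were -0.24, 0.18 and -0.13, with Psmb8 above the control. The 2 ipsilateral spots of Psmb8 had a standard deviation of 0.29, wider than its ratio of 0.18. Of the ratios to control, only those of Psmb9, on both sides, were past their scanner error. Between the sides, the ratios of Psmb8, -0.31, and Psmb9, -0.26, were past theirs, and that of Psmb10 was not. With Psme1 and Psme2, all 5 interferon-inducible genes were below the control contralaterally, with a median of -0.15, and all 5 were lower contralaterally than ipsilaterally, with a median of -0.09, although the value of Psmb8 rests on those spots. Left unscaled, 0 of 5 were lower contralaterally than ipsilaterally, and 2 of 5 were under spike-in scaling; Psmb8 was then below the control ipsilaterally, by -0.35 and -0.07. The contralateral ratio of each of the 5 to control stayed below the all-gene median with quantile normalization, with normexp and with 50 added to the signal, the 3 alternatives that change these genes' own ratios by other than a constant. Between the sides, this did not hold for Psme2 and Psmb10, which lay 0.0013 and 0.06 above that median with 50 added to the signal; Psmb10 was also above it without a filter on dim probes.

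Genes of microglia and macrophages, cells that express the immunoproteasome, were also lower contralaterally than ipsilaterally, in 5 of 5 genes with a median of -0.28. Unscaled, 0 of 5 were lower, and 4 of 5 under spike-in scaling. Against the control, C1qa had ratios of 0.47 contralaterally and 0.75 ipsilaterally, Itgam 0.21 and 0.54, and Cd68 0.18 and 0.55, all above it. The contralateral ratios of Itgam and Cd68 were within their scanner error. The 2 probes of Itgam differed, and it had -0.08 and 0.24 with curated accessions and 0.50 and 0.84 with its brightest probe. Csf1r had -0.05 and 0.08. Aif1, with -0.29 and -0.10, was the only one of the 5 below the control on both sides, as Psme1 and Psme2 were. The 5 genes summed to a scaled signal of 4389 contralaterally, 5256 ipsilaterally and 3794 in the control, with C1qa, a complement component, as the brightest, and none was undetected. Those of T and NK cells summed to 249, 236 and 180, with Nkg7 as the brightest and Cd3e, a defining T cell gene, undetected on every array. Nkg7 had log2 ratios to control of 0.87 contralaterally and 0.74 ipsilaterally, while Cd3d had 0.03 and -0.03. The leptomeningeal and choroid plexus sums given above were lower contralaterally than in the control. The part of any of these cells in the values of the activators and immunoproteasome subunits was not tested.

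Assembly factors, which help build the particles without staying in them, included the core chaperone Psmg2 and the base chaperones Psmd5, Psmd9 and Psmd10. Psmg2 had 8.25 contralaterally, 8.18 ipsilaterally and 8.02 in the control, and its contralateral ratio of 0.23 was the highest of all measured subunits and past its scanner error. Psmd5 had 8.77, 8.60 and 8.80, with ratios of -0.02 and -0.19. Its ratio of 0.17 between the sides was the highest of all measured subunits in that comparison. Psmd9 and Psmd10 had ratios of 0.11 and 0.04 contralaterally and 0.08 and 0.08 ipsilaterally. The class median lay above the all-gene median in 9 of the 9 settings that can change this contralaterally and between the sides.

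Psmg4, a partner of the core chaperones, was read by 2 probes that did not behave alike. The brighter probe had 11.11 contralaterally, 11.15 ipsilaterally and 11.17 in the control, with ratios of -0.06 and -0.02. The other had 3.62 in the control and was not well above background on either MCAO array, where the control was at least 1.35-fold brighter than the contralateral array and no bound could be given ipsilaterally. The averaged ratios of -0.43 and -0.72 thus came from the dim probe, and the brighter probe showed signals level with the control. Psmf1, a regulator that binds the core, had 10.63, 10.61 and 10.52, with ratios of 0.11 and 0.08, and its contralateral ratio lay above the all-gene median in 9 of those 9 settings.

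**Figure D4:**
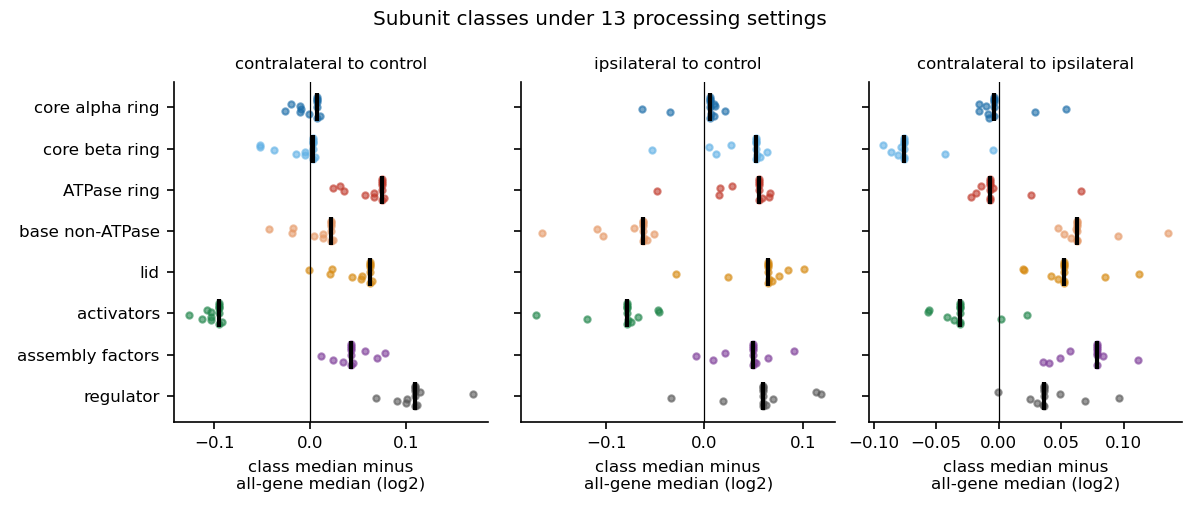
Median log2 ratio of each subunit class minus that of all genes (horizontal) for the 3 comparisons; points are the 13 processing settings, offset vertically only for display, and the black bar is the reported setting, with which 4 others coincide by construction. The activators lie below 0 in every setting in both comparisons with the control, and so does the base ipsilaterally; the ATPase ring, the assembly factors and the regulator lie above 0 in every setting contralaterally. Between the sides, the beta ring lies below 0 and the lid, base and assembly factors above 0 in every setting. Settings that filter spots or choose probes leave most subunits' ratios as reported and mainly move the all-gene median, which is not matched for signal.

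Other genes of the pathway were read in the same way. Of 37 such genes, the 3 immunoproteasome subunits included, 30 were matched and 29 detected, and the unmatched ones were Uchl5, Ube3c, Ecpas, Paaf1, Zfand5, Nfe2l1 and Ddi2. Contralateral to control and between the sides 0 of 29 passed a log2 ratio of 0.5, and ipsilateral to control 1 did, against the 14.4%, 14% and 17.1% of all detected genes. It was Uba6, a ubiquitin-activating enzyme that was not well above background on that array. Psmb9, at -0.49 contralaterally, lay near this threshold and passed it with the deposited values, at -0.54, under spike-in scaling, at -0.58, and unscaled, at -0.64. Their median log2 ratios were 0.06 contralaterally and 0.07 ipsilaterally. Ubb, a polyubiquitin gene, had 16.41 contralaterally, 16.50 ipsilaterally and 16.29 in the control, and Rps27a, which encodes ubiquitin fused to a ribosomal protein, had 15.80, 15.89 and 15.66. Ubb and Rps27a were above the control on both sides, and ipsilaterally, at 0.22 each, they were past their scanner error.

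Among the 7 matched partners of the complex, ratios lay between -0.05 and 0.12 contralaterally, with the ubiquitin receptor Adrm1 highest and Zfand2a lowest, and between -0.14 and 0.14 ipsilaterally, with Adrm1 highest and Akirin2 lowest. Pomp, the chaperone that matures the core, had 0.01 and 0.08. The 12 shuttle and unfolding factors, which bring substrates to the proteasome, lay between -0.15 for Faf1 and 0.16 for Ubqln2 contralaterally and between -0.11 for Faf1 and 0.15 for Ubqln1 ipsilaterally, with a median of 0.07 on both sides. Vcp, the segregase of this group, had -0.02 on both sides. Ngly1, an enzyme that acts on the transcription factor of proteasome genes, had 0.18 and 0.07. Ddi1, from the same list, was undetected, and Ddi2 had no matched probe.

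The promoters were searched because a shared motif could be set beside the subunits' values. RefSeq promoters of 300 bases, 250 before and 50 after the gene's start on build GRCr8, were found for 36 of the 40 subunits; Psma7, Psmd6, Psmd12 and Psmd14 had no entry. TGACNNNGC, the core of the antioxidant response element, was searched on both strands and occurred in 8 of 36 subunit promoters, 22.2%, and in 12.06% of all 33469 promoters. CCAAT, on both strands, occurred in 17 of 36, 47.2%, against 37.5%. The 8 sites of TGACNNNGC that lie before a gene's start are shown with up to 25 bases on each side, in the direction of the gene and with the site in capitals, as it reads on that strand; another 2 sites, in Psmd1 and Psmd3, lie past the start.
Psmb5, chr15:32047406-32047464, minus strand, 60 bases before the start: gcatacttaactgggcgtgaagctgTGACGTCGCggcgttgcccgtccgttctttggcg
Psmb2, chr5:144254965-144255023, plus strand, 68 bases before the start: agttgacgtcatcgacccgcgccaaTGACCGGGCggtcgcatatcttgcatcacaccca
Psmb6, chr10:55737839-55737887, plus strand, 24 bases before the start: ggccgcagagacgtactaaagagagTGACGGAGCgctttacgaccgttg
Psma3, chr6:95219712-95219748, plus strand, 12 bases before the start: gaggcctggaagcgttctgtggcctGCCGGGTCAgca
Psmd1, chr9:94157781-94157839, plus strand, 165 bases before the start: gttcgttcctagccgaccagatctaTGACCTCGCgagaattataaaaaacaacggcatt
Psmd9, chr12:39018355-39018413, minus strand, 124 bases before the start: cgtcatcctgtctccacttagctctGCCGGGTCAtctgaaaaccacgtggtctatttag
Psmd9, chr12:39018308-39018366, minus strand, 77 bases before the start: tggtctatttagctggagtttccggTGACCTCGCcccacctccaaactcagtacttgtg
Psme4, chr14:108706563-108706621, plus strand, 55 bases before the start: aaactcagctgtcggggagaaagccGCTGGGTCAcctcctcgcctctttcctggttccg

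The 8 measured subunits with this motif had median log2 ratios of 0.02 contralateral to control, 0.06 ipsilateral to control and -0.01 between the sides. The 26 measured subunits with a promoter that lacked it had 0.02, 0.06 and -0.01, so the medians were the same to 2 decimals. The motif was present in genes at both ends of the range, such as Psmd1 at 0.14 and Psmd3 at -0.11 contralaterally. A match describes these letters in this window and nothing about binding.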

How the data were processed

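Labelled RNA of 3 pooled samples was read on 1-colour Agilent rat arrays. Per the file headers, Agilent Feature Extraction 12.1.0.3 produced the deposited intensity of each spot, background-subtracted and on a linear scale, with an error, flags for outliers and a call of well above background; the array annotation was of build rn4. Intensities were scaled to the 75th percentile of the 58717 spots that are not controls and taken as log2. The 759 spots that carried an outlier flag were dropped from all arrays, spots of a probe and then probes of a gene were averaged, and 17622 of 39957 accessions matched 1 RefSeq symbol (assembly GRCr8, names only) without version. The error of a log2 ratio combines the software's errors on both arrays, not reduced for replicate spots.

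The deposited series values equal the processed intensity times a constant for each array, 1.12, 1.45 and 1.04 for the contralateral, ipsilateral and control arrays; the methods name control samples on each chip as the reference for normalization, and how the constants follow from them is not given in the sources used here. The files hold median signals, so normexp with an offset of 50 used these and the local background median. Subunits named by rule were the highest and lowest of each class and the 3 highest and 3 lowest of each comparison. The rule also took those past a log2 ratio of 0.5 and those not well above background on some array. Others, such as Psmb4, Psmb5, Psmd6 and Psmd14, were named in addition, outside this rule. Members and lists were chosen with earlier results of these data known. Some genes of the pathway list are not reported singly here. Python 3.11.15 with numpy 2.4.6, pandas 2.3.3 and matplotlib 3.10.9, and R 4.3.3 with limma 3.58.1, were used; the steps were tested on simulated data.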

Additional observations from a re-analysis of the deposited data

Results flagged for a closer look

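Among genes well above background on every array, 3 choroid plexus genes had MCAO arrays that moved in opposite directions from the control, each by more than the scanner error. Ttr had a log2 ratio of -1.73 contralateral to control and 1.19 ipsilateral to control, Folr1, a folate receptor, had -0.87 and 0.93, and Kcnj13, a potassium channel, had -0.67 and 0.21. The ipsilateral value of Kcnj13 barely passed its error. It was 0.15 with the deposited values, -0.04 under spike-in scaling and -0.32 unscaled, scalings that move all genes alike. The sign of this ratio to control thus depends on the scaling. Against the all-gene median the value lay above 0 in all 13 settings, by 0.14 to 0.22. Contralaterally Folr1 had -0.43 with normexp and also with 50 added to the signal, while Ttr and Folr1 kept both directions in all 13 settings. Clic6, the other choroid plexus gene well above background throughout, did not show this pattern, with -0.55 and -0.31, the latter within its error and at 0.31 with 50 added. Kl had signs in the same order but was not well above background contralaterally, so it is not counted. The difference was not tested, since each side is 1 array. Of the 11250 measured genes 109 met this rule, 0.969%, and of the 38 measured subunits 0 did, so that a count of 0 is near what this share gives.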

How the results depend on the processing

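List medians, the ratios of genes named by rule and the counts past log2 ratios of 0.5 and 1 were recomputed under 12 alternatives; scanner-error counts, signal bands and motif medians were not. Settings that add a constant to an array moved subunits and all genes alike. Left unscaled, the arrays put the median of all genes at -0.15 contralateral to control, -0.51 ipsilateral to control and 0.37 between the sides, and the subunits' medians were -0.12, -0.48 and 0.37; under spike-in scaling those of all genes were -0.08, -0.22 and 0.15, and those of the subunits -0.05, -0.19 and 0.15. With 50 added to the signal, the median ipsilateral to control was 0.12 for all genes and 0.07 for the subunits. The difference between subunits and all genes stayed between -0.0058 and 0.04 contralateral to control, -0.06 and 0.05 ipsilateral to control, and -0.01 and 0.06 between the sides. The sign of the subunits' own median is not settled: over 13 settings it was below 0 in 4, 3 and 7.

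Contralateral to control, 1 subunit passed a log2 ratio of 0.5 when arrays were left unscaled and 1 under spike-in scaling, against 0; of all genes, 17.0% and 15.4% did. Ipsilateral to control, against 1, the counts were 16 unscaled, 2 by spike-in probes, 2 with quantile normalization, 2 with the deposited values, and 0 with normexp, with 50 added, with dim probes dropped, with the brightest probe and with curated accessions. Of all genes, 56.6%, 21.3%, 17.2% and 17.0% passed in the settings with 16, 2, 2 and 2 subunits, and 2.51%, 12.4%, 9.26%, 16.5% and 16.6% in those with 0. Between the sides, against 0, they were 3 unscaled, 1 by spike-in probes and 2 with quantile normalization, with 23.0%, 13.04% and 13.3% of all genes. Beyond a log2 ratio of 1, against 0, they were 1 unscaled and 2 with quantile normalization ipsilateral to control, and 1 with quantile normalization between the sides, with 8.43%, 6.81% and 5.72% of all genes. Psmg4 leaves the count where its dim probe is dropped; the cause was not tested for quantile normalization. Of the other pathway genes, against 0, 1 and 0 in the 3 comparisons past 0.5, there were 1, 10 and 2 unscaled, 1, 1 and 1 by spike-in probes, 0, 1 and 1 with quantile normalization, 1, 1 and 0 with the deposited values and 0, 2 and 1 without a filter on dim probes, and 0 ipsilateral to control with normexp, with 50 added and with dim probes dropped. Dim probes, single arrays and pooled rats limit all values.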
